A study of Mus musculus with 8 samples.

Results

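A set of 10 genes of fibroblast growth factor (FGF) signaling was followed on 8 mouse expression arrays: the ligands Fgf4, Fgf5, Fgf8 and Fgf15, the receptors Fgfr1 and Fgfr2, and the ERK feedback and target genes Spry4, Dusp6, Etv4 and Etv5. They were picked by name, and every probe set that names only one of them in the annotation of the array was taken. This gave 24 probe sets, 8 for the ligands, 6 for the receptors and 10 for the ERK feedback genes, of the 34945 probe sets that name 1 gene and the 18193 genes these cover. The Affymetrix array covered the mouse genome, and on it a transcript is read by a set of short probes summarized into 1 value on the log2 scale. The 4 groups of 2 samples each were control embryonic stem cells (ESCs), Tfap2c-/- ESCs, control primordial germ cell-like cells (PGCLCs) and Tfap2c-/- PGCLCs. Tfap2c encodes the transcription factor TFAP2C (AP-2 gamma), and the labels spell it Tcfap2c and call the PGCLC samples PGC. All groups carried the Blimp1mVenus transgene, a reporter driven by Prdm1 sequences. The controls were the parental ESC lines with both Tfap2c alleles floxed, and the Tfap2c-/- lines were made from them by transient transfection with Cre under the Pgk promoter. The study had a pair of such parental lines and 1 knockout derived from each, and the labels do not tie the replicate numbers to the lines, so the p-values measure the spread between these samples. PGCLCs were differentiated from ESCs through epiblast-like cells and sorted for the reporter. The medium that the methods list for culture of the ESCs held LIF, the GSK3 inhibitor CHIR99021 and the MEK inhibitor PD0325901. For induction of PGCLCs the study used another medium, with LIF and the growth factors BMP4, BMP8b, SCF and EGF. Effects of cell type and of medium therefore cannot be told apart here.

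An FGF ligand binds a receptor tyrosine kinase together with heparan sulfate, and the receptor signals through RAS, RAF and MEK to the kinase ERK. ERK signaling raises transcription of its own brakes, such as the Sprouty proteins and the phosphatase DUSP6, and of the ETS factors ETV4 and ETV5, so these genes are in common use as readouts of pathway activity. In mouse ESCs, FGF4 is the main autocrine ligand and drives exit from naive pluripotency, and Fgf5 marks the primed epiblast. MEK inhibitors such as PD0325901 block the step before ERK.

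TFAP2C binds GC-rich palindromes, and the sequences shown here are the stretches of the members' promoters that hold these letters, because the knockout removes this factor. RefSeq promoter windows (GRCm38.p6, from 250 bases before to 50 bases after a gene's start) were at hand for 5 of the 10 genes, as 6 windows, and were searched for GCCNNNGGC and GCCNNNNGGC, each of which is its own reverse complement. There were 4 matches, in Fgf4, Fgf5 and Etv5, none overlapping another, and no match in the windows of Fgfr2 and Dusp6. The other 5 genes, Fgf8, Fgf15, Fgfr1, Spry4 and Etv4, had no window. Each stretch is given 5′ to 3′ on the strand of the gene, with the motif in capitals and 10 bases on each side where the window allows.
Fgf4, chr7:144861156-144861185, plus strand, motif 220 bases before the start: ggagcagagaGCCAAGGGGCgggatcaaca
Fgf5, chr5:98253940-98253968, plus strand, motif 234 bases before the start: cgattccggaGCCGCTGGCtcgggcaggg
Etv5, chr16:22439663-22439691, minus strand, motif 111 bases before the start: tgggctgcggGCCAATGGCggcgggcgga
Etv5, chr16:22439789-22439818, minus strand, motif 238 bases before the start: ccgaccgttaGCCAATGGGCgccgcagatg
The shorter motif was in 16.59% of all 32851 promoter windows, the longer one in 14.794% and either of them in 26.97%, so a match is common and is a description of the letters only. For chromatin immunoprecipitation of TFAP2C at Fgf4 the study designed a primer pair in the 5′ untranslated region, which is given because Fgf4 has the largest knockout difference of the 10 genes in PGCLCs. Neither primer lies in the promoter window.
Fgf4 forward primer: agcactcaccgaactcacg
Fgf4 reverse primer: agcagcgtccctgtggtc

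The medians of the arrays lay between 3.47 and 3.55, and no detection calls were used here, so a probe set under its array's median is called dim. Tfap2c itself was 7.88 and 9.14 in the control and 7.28 and 6.47 in the knockout ESCs, and 9.84 and 10.29 in the control and 8.52 and 8.85 in the knockout PGCLCs. It did not pass the test in either cell type (adjusted p = 0.15 in PGCLCs and 1.0 in ESCs, limma). Whether its probe set lies in the deleted part is not given, so this does not check the labels. Over 9 PGC marker genes the mean level was 7.84 and 8.14 in control PGCLCs, whereas the other 6 samples ranged from 5.60 to 6.77. From control ESCs to control PGCLCs 5 of the 9 were called higher, where 4.64% of all genes were. The 9 include Prdm1, whose sequences drive the reporter used for sorting, and Tfap2c, the gene deleted. Prdm1 was among the 5, so these values are not independent of the sort and the genotype. The knockout counts in PGCLCs that follow stand beside 3.09% of all genes called, 1.29% higher and 1.8% lower. Over 12 naive pluripotency markers it was 9.05 to 9.17 in the ESCs and 8.34 to 9.06 in the PGCLCs, and in Tfap2c-/- PGCLCs 1 of the 12, Klf4, was higher (2.22) and 1, Pecam1, lower (−1.50) than in control PGCLCs. Over 8 primed epiblast markers the mean was 5.199 and 4.75 in the control and 6.31 and 6.17 in the knockout PGCLCs, and 5.58 to 6.20 in the ESCs. In PGCLCs 2 of these 8, Zic2 (3.71) and Pou3f1 (1.33), were higher with the knockout, and the median difference was 1.15. Of 6 core pluripotency markers Tdgf1 was higher there (1.36) and 5 were not called. The trophoblast list averaged 4.29 to 4.40 in the ESCs and 4.73 to 5.25 in the PGCLCs, led by the keratin genes Krt8 and Krt18, with Elf5 at most 3.15 on every array. The mean of the primitive endoderm list ran from 3.13 to 4.31, and 1 of its 9 genes, the laminin gene Lama1, was higher in Tfap2c-/- than in control PGCLCs (2.11). Its collagen gene Col4a1 reached 6.63, and Gata6, Pdgfra and Dab2 reached 4.63, 4.66 and 4.84, each in a PGCLC sample, whereas Sox17 and Gata4 were at most 3.86 on every array. Means of the mesoderm and neural lists stayed between 3.33 and 4.29. The array of control PGCLC sample 2 stood apart in a sign of RNA quality, the log2 level of the 3′ minus that of the 5′ Gapdh control probe sets, which was 0.949 there and 0.305 to 0.522 on the other arrays. The mean level of the poly-A spike-ins was 5.42 to 5.91 in the ESCs, and 5.84 and 7.91 in the control and 7.44 and 6.72 in the knockout PGCLCs. The part of these differences in the results was not tested, and results that depend on a single sample are given with it left out. In bulk samples fewer cells of a type and less RNA per cell cannot be told apart.

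In PGCLCs the loss of Tfap2c went with more mRNA of the ligands Fgf4 and Fgf15 and less of the receptor Fgfr2. None of the 4 ERK feedback genes in the set passed the test. The calls were 3 of 10 genes (limma, adjusted p under 0.05), 2 higher and 1 lower. Over all 18193 genes 3.09% were called, 1.29% higher and 1.8% lower. Of 29 other ERK feedback and target genes, 4 were higher and 1 was lower, as given below with their limits. By the fold rule of the methods, a mean difference above 1.5 on the log2 scale on any probe set, 3 of 10 passed, Fgf4, Fgf15 and Fgfr2, against 2.32% of all genes. In ESCs 0 of 10 genes were called, as were 0.0% of all genes in either direction, so the count says nothing particular of the 10. Of these, none had an unadjusted p under 0.05 (455 of all genes had), and by the fold rule 0 of 10 passed against 0.132%. The median log2 difference of the 10 genes was 0.12 in PGCLCs and 0.02 in ESCs, beside −0.04 and −0.00 over all genes.

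**Figure D1:**
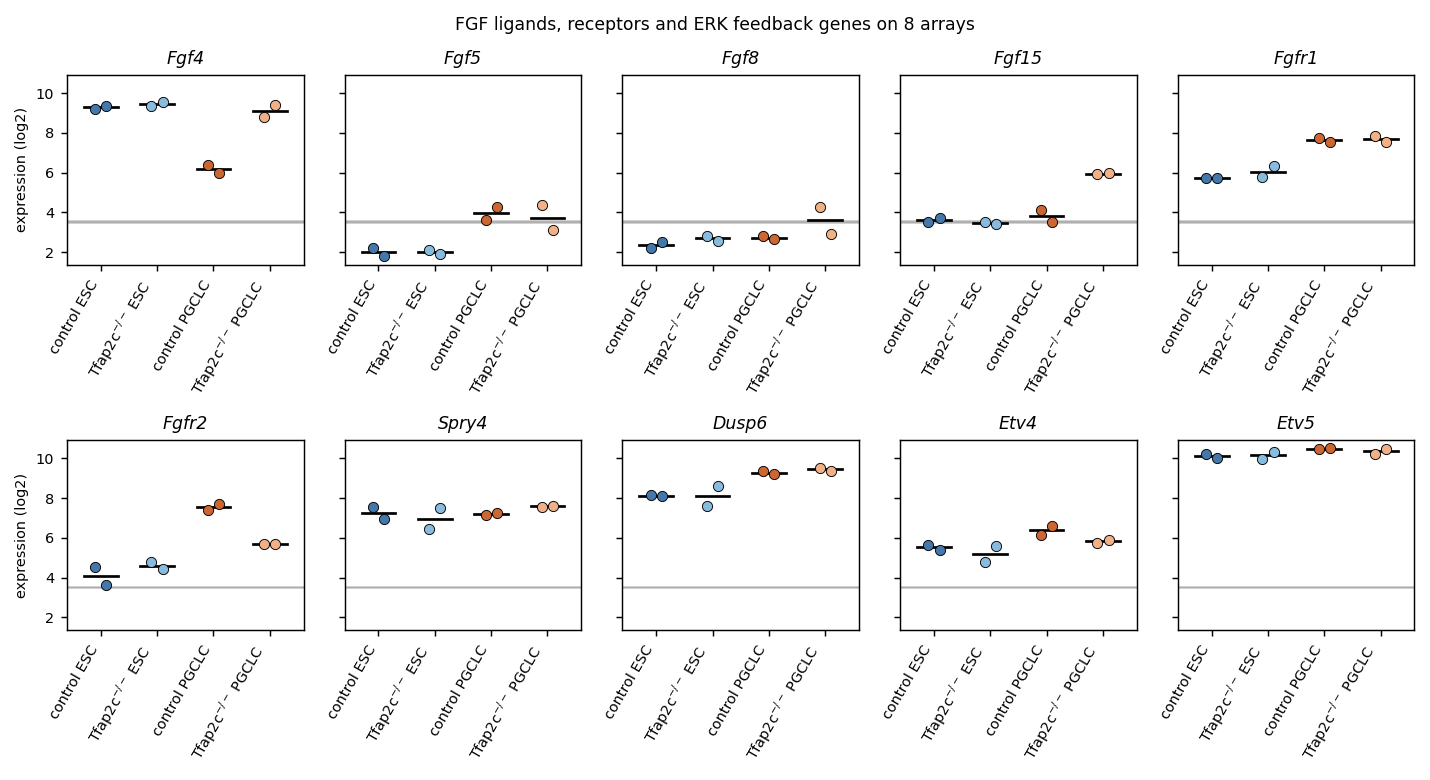
Expression (log2, vertical axis) of the 10 genes in each of the 8 samples, 1 panel per gene, with points for samples, black bars for the means of the 2 samples of a group and a grey band for the range of the array medians. Fgf4 is near 9 in all groups but control PGCLCs, Fgf15 stands above the band clearly in Tfap2c-/- PGCLCs, and Fgfr2 is highest in control PGCLCs.

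Fgf4, the ligand that ESCs make for themselves, was high in ESCs of both genotypes, low in control PGCLCs and high again in Tfap2c-/- PGCLCs. Its log2 level was 9.21 and 9.37 in the control and 9.35 and 9.55 in the knockout ESCs. In PGCLCs it was 6.39 and 5.996 in controls and 8.78 and 9.41 in the knockout. The 2 control PGCLC samples lay below all other samples, and the PGCLC genotypes did not overlap. The knockout difference in PGCLCs was 2.90 on the log2 scale (SE 0.23, 95% interval 2.37 to 3.43, adjusted p = 0.0017, limma), which is 7.47-fold. In ESCs it was 0.16 (SE 0.23, 95% interval −0.37 to 0.69, adjusted p = 1.0). The effect in PGCLCs exceeded that in ESCs by 2.74 (SE 0.32, adjusted p = 0.0321), which made Fgf4 the 1 of 10 genes called for a difference between the cell types, where 0.148% of all genes were called, 0.033% with a higher effect in PGCLCs and 0.115% with a lower one. This last call held in 2 of 8 fits that left out a sample. It was lost without either control ESC sample (adjusted p = 0.158 and 0.161), without either Tfap2c-/- ESC sample (0.115 and 0.105), without control PGCLC sample 2 (0.132) and without Tfap2c-/- PGCLC sample 2 (0.0763), with differences of 2.43 to 2.84. The call in PGCLCs held in all 8, with 2.70 (adjusted p = 0.0179) without control PGCLC sample 2. The primed epiblast and naive pluripotency lists were, like Fgf4, lowest in the 2 control PGCLC samples. For the naive list these means were 8.66 and 8.34, and Tfap2c-/- PGCLC sample 1 was close to them at 8.70. The part of either list in the result was not tested.

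From control ESCs to control PGCLCs Fgf4 fell by 3.10 on the log2 scale (SE 0.23, adjusted p = 0.000935). From Tfap2c-/- ESCs to Tfap2c-/- PGCLCs the difference was −0.36, with a 95% interval of −0.89 to 0.18 (adjusted p = 0.443). A second bright Fgf4 probe set, 1420086_x_at, read 9.17 and 9.31 in the control and 9.24 and 9.42 in the knockout ESCs, and 6.41 and 5.83 in the control and 8.74 and 9.39 in the knockout PGCLCs, and so had the pattern of 1420085_at, which was used above. The suffix of 1420086_x_at marks probes liable to cross-hybridize. The other 2 Fgf4 probe sets were lower. Probe set 1450282_at read 4.33 and 3.92 in control PGCLCs against 4.33 and 4.67 in Tfap2c-/- PGCLCs, and 1449729_at read 2.57 and 2.51 against 3.10 and 3.74. In 1450282_at, which was above the array median on all 8 arrays, the PGCLC genotypes met at 4.33 and differed by 0.38 in the mean. Probe set 1449729_at was above the array median on 1 array, so its values do not check the bright probe sets.

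Fgf15, the mouse counterpart of the endocrine human ligand FGF19, was near the array median in ESCs and stood well above it in Tfap2c-/- PGCLCs. It was 3.54 and 3.70 in the control and 3.53 and 3.43 in the knockout ESCs, and 4.13 and 3.52 in the control and 5.91 and 5.97 in the knockout PGCLCs. The last pair did not overlap any other group. In PGCLCs Fgf15 rose by 2.11 on the log2 scale with the knockout (SE 0.22, adjusted p = 0.00513, limma), and the call held in each of the 8 fits that left out a sample. In ESCs the difference was −0.14 (95% interval −0.66 to 0.38, adjusted p = 1.0). The difference between these effects was 2.25 and missed the threshold (adjusted p = 0.0626), but passed it without control PGCLC sample 1 (2.55, adjusted p = 0.0314). The ESC levels and control PGCLC sample 2 were near the array median, whereas control PGCLC sample 1, at 4.13, was above its array's median of 3.54. A long noncoding RNA, Gm26793, overlaps Fgf15 in RefSeq, and which of them the single Fgf15 probe set reads was not tested.

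Fgf5, the primed epiblast ligand, was dim in ESCs of both genotypes and higher in control PGCLCs. Its level was 2.22 and 1.78 in the control and 2.10 and 1.91 in the knockout ESCs, and 3.63 and 4.26 in the control and 4.38 and 3.09 in the knockout PGCLCs. The genotypes overlapped in both cell types. The fitted difference of control PGCLCs from control ESCs was 1.94 (SE 0.40, adjusted p = 0.0294, limma), and that among the knockout samples was 1.73 (SE 0.40, adjusted p = 0.0755), and with dim ESC values neither is a measured fold. The call in controls was lost when any of its 4 samples was left out, with adjusted p = 0.0993 and 0.149 without control ESC samples 1 and 2 and 0.063 and 0.162 without control PGCLC samples 1 and 2. All ESC values were under the array median and have no order among themselves. The knockout difference in PGCLCs was −0.21, with an interval of −1.15 to 0.73.

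Fgf8, a ligand of the early epiblast and primitive streak, was dim on 7 of the 8 arrays. It was 2.19 and 2.52 in the control and 2.79 and 2.58 in the knockout ESCs, and 2.79 and 2.66 in the control and 4.27 and 2.93 in the knockout PGCLCs. Only Tfap2c-/- PGCLC sample 1 stood above the array median. The knockout difference in PGCLCs was 0.87 and did not pass (SE 0.38, adjusted p = 0.324, limma), but without Tfap2c-/- PGCLC sample 2 it was 1.54 (adjusted p = 0.0462) and without sample 1 it was 0.20, so a single sample decides it.

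In the controls both receptors were higher in PGCLCs, and of the pair Fgfr2 was called between the PGCLC genotypes. Fgfr1, the receptor that carries most FGF4 signaling in the epiblast, was 5.73 and 5.71 in the control and 5.75 and 6.32 in the knockout ESCs, and 7.74 and 7.54 in the control and 7.84 and 7.56 in the knockout PGCLCs. Every PGCLC sample exceeded every ESC sample, and the genotypes overlapped in PGCLCs. The rise from ESCs to PGCLCs was 1.92 in controls (SE 0.22, adjusted p = 0.00393, limma) and 1.66 in the knockout (SE 0.22, adjusted p = 0.0158). The first of these held in all 8 fits that left out a sample, and the second was lost without Tfap2c-/- PGCLC sample 1 (adjusted p = 0.0956) or sample 2 (0.0545). These values come from 1424050_s_at, whose suffix marks probes shared by several transcripts. On 1436551_at, the Fgfr1 probe set without a suffix, which read 3.04 to 3.62 in ESCs and 3.81 to 4.37 in PGCLCs, the rise in the knockout was 0.58 and did not pass (adjusted p = 0.228). The knockout difference in PGCLCs was 0.05, with a 95% interval of −0.46 to 0.57.

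Fgfr2, a receptor whose isoforms bind several ligands of the family, was 4.54 and 3.61 in the control and 4.76 and 4.44 in the knockout ESCs. It was 7.39 and 7.71 in control PGCLCs and 5.715 on both arrays of Tfap2c-/- PGCLCs. The order of the group means was thus control PGCLCs, Tfap2c-/- PGCLCs, Tfap2c-/- ESCs and control ESCs, and the genotypes overlapped in ESCs but not in PGCLCs. The identical values of the Tfap2c-/- PGCLC arrays add no spread to the fit, and 2.21% of all values were identical between these arrays. In PGCLCs Fgfr2 fell by 1.84 on the log2 scale with the knockout (SE 0.31, 95% interval −2.54 to −1.13, adjusted p = 0.0236, limma). This call was lost without control PGCLC sample 1 (−1.996, adjusted p = 0.0603), control PGCLC sample 2 (−1.68, 0.177), Tfap2c-/- PGCLC sample 1 (−1.84, 0.102) and Tfap2c-/- PGCLC sample 2 (−1.84, 0.143). The rise from control ESCs to control PGCLCs was 3.48 (SE 0.31, adjusted p = 0.00153) and held in all 8. From Tfap2c-/- ESCs to Tfap2c-/- PGCLCs the difference was 1.12 (95% interval 0.41 to 1.83) and did not pass (adjusted p = 0.115). The difference between the knockout effects was −2.36 (adjusted p = 0.121). These values come from 1433489_s_at, again with shared probes. Of the other 2 Fgfr2 probe sets, 1420847_a_at was near the array median and 1443211_at was dim on every array. The former read 3.65 and 3.94 in the control and 3.35 and 2.89 in the knockout PGCLCs, which has the same order. The latter, the one Fgfr2 probe set with neither an _s_at nor an _a_at suffix, read 2.02 to 2.40 over all arrays. Its differences of 0.16 for the knockout in PGCLCs (adjusted p = 0.76) and −0.0805 between control PGCLCs and control ESCs (0.829) lie among values too dim to have an order, so they do not check the bright probe set.

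The ERK feedback and target genes were well above the array median in every sample, and none of the 4 passed the test for the knockout in either cell type. On the probe sets tested, their knockout differences in PGCLCs ran from −0.56 for Etv4 to 0.40 for Spry4. In ESCs they ran from −0.36 for Etv4 to 0.04 for Etv5. Spry4, a Sprouty inhibitor of RAS-ERK signaling, was 7.55 and 6.93 in the control and 6.42 and 7.52 in the knockout ESCs, and 7.13 and 7.24 in the control and 7.56 and 7.61 in the knockout PGCLCs. The PGCLC genotypes did not overlap, with a difference of 0.40 (95% interval −0.41 to 1.21, adjusted p = 0.675, limma), and the ESC samples of both genotypes spread over the widest range. On another Spry4 probe set, 1422021_at, also above the array median on all 8 arrays, the PGCLC genotypes separated the other way (−0.58). It read 4.69 and 4.88 in the control and 4.39 and 4.01 in the knockout PGCLCs. On 1440867_at the PGCLC genotypes met at 4.66. Dusp6, the phosphatase that acts on ERK in the cytoplasm, was 8.17 and 8.09 in the control and 7.62 and 8.59 in the knockout ESCs, and 9.34 and 9.19 in the control and 9.53 and 9.39 in the knockout PGCLCs. All 4 PGCLC samples were above all 4 ESC samples. In controls the difference was 1.14 (SE 0.28, adjusted p = 0.047), just past the threshold, and in the knockout it was 1.35 (SE 0.28, adjusted p = 0.0541), just short of it. The call in controls held in 2 of 8 fits that left out a sample, with adjusted p = 0.168 and 0.184 without control ESC samples 1 and 2, 0.179 and 0.166 without control PGCLC samples 1 and 2, and 0.0766 and 0.0765 without Tfap2c-/- PGCLC samples 1 and 2. With replicate number as a block it was 0.0519. Without Tfap2c-/- ESC sample 2 the knockout difference was 1.84 and passed (adjusted p = 0.017). The knockout effect on Dusp6 in PGCLCs was 0.19, with an interval of −0.45 to 0.83.

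Etv4, an ETS factor of the PEA3 family, was 5.66 and 5.40 in the control and 4.76 and 5.58 in the knockout ESCs, and 6.16 and 6.61 in the control and 5.76 and 5.89 in the knockout PGCLCs. The control PGCLC samples were the highest, and the PGCLC genotypes did not overlap. Neither the knockout difference of −0.56 in PGCLCs (95% interval −1.24 to 0.12, adjusted p = 0.428, limma) nor the cell type difference of 0.85 in controls (adjusted p = 0.126) passed. The second Etv4 probe set, 1443381_at, read 5.44 and 6.18 in the control and 4.91 and 5.41 in the knockout PGCLCs, in the same order. Etv5, its close relative, was 10.22 and 10.04 in the control and 9.99 and 10.34 in the knockout ESCs, and 10.48 and 10.50 in the control and 10.24 and 10.45 in the knockout PGCLCs. On the probe set tested the genotypes overlapped in ESCs, and in PGCLCs both knockout samples were below both controls. On the other Etv5 probe sets the ESC genotypes did not overlap, with a difference of −0.47 on each. Probe set 1450082_s_at read 7.30 and 7.16 in the control and 6.80 and 6.71 in the knockout ESCs. Probe set 1420998_at read 5.59 and 5.79 in the control and 5.51 and 4.91 in the knockout ESCs. The knockout difference in PGCLCs was −0.14 (95% interval −0.47 to 0.19, adjusted p = 0.733).

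**Figure D2:**
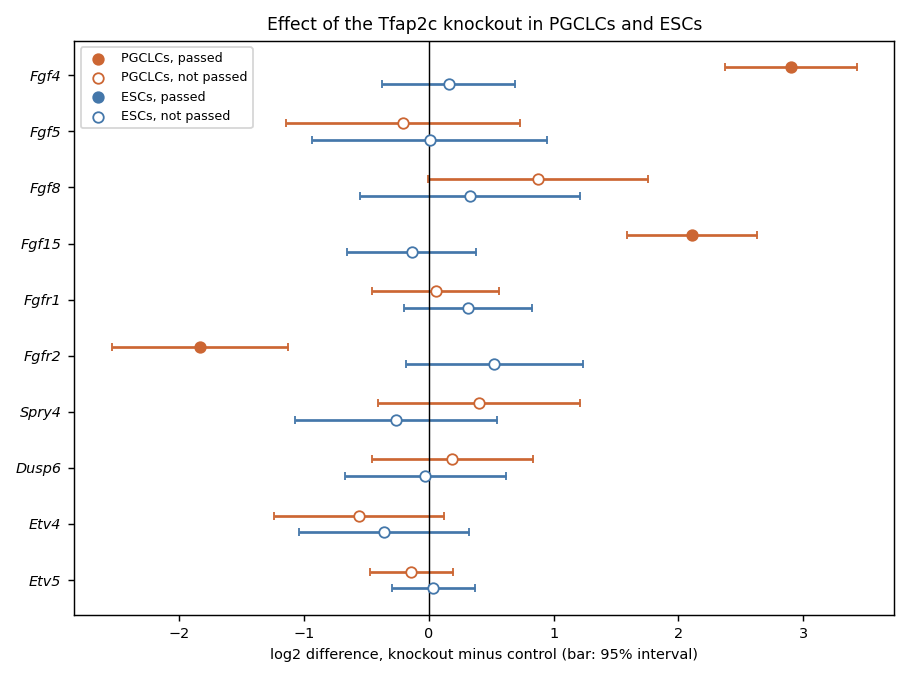
Log2 difference of Tfap2c-/- minus control (horizontal axis) for the 10 genes in PGCLCs (orange) and ESCs (blue), with 95% intervals as bars and filled points for genes past an adjusted p of 0.05. In PGCLCs Fgf4 at 2.90 and Fgf15 at 2.11 lie to the right and Fgfr2 at −1.84 to the left, while every ESC interval reaches over 0.

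In the controls both receptors, the phosphatase gene Dusp6 and the ligand Fgf5, which was dim in ESCs, were higher in PGCLCs than in ESCs, and Fgf4 was lower. Control PGCLCs differed from control ESCs in 5 of 10 genes (limma), 4 higher and 1 lower, where 8.37% of all genes were called, 4.64% higher and 3.72% lower. By the fold rule 4 of 10 passed, against 4.61%. The remaining differences were 0.85 for Etv4, 0.38 for Fgf8, 0.36 for Etv5, 0.21 for Fgf15 and −0.06 for Spry4. Tfap2c-/- PGCLCs differed from Tfap2c-/- ESCs in 2 of 10 genes, Fgf15 by 2.46 (SE 0.22, adjusted p = 0.00574) and Fgfr1, both higher, where 2.32% of all genes were called, 1.35% higher and 0.973% lower. By the fold rule 3 of 10 passed, against 2.94%, and 3 of 10 passed it for the difference between the knockout effects, against 2.09%. The differences of the others ran from −0.36 for Fgf4 to 1.73 for Fgf5. The median over the 10 genes was 0.61 in controls and 1.02 in the knockout, beside −0.03 and −0.06 over all genes. These comparisons use the same PGCLC and ESC samples as the knockout comparisons, so their values are given side by side and are not separate evidence.

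**Figure D3:**
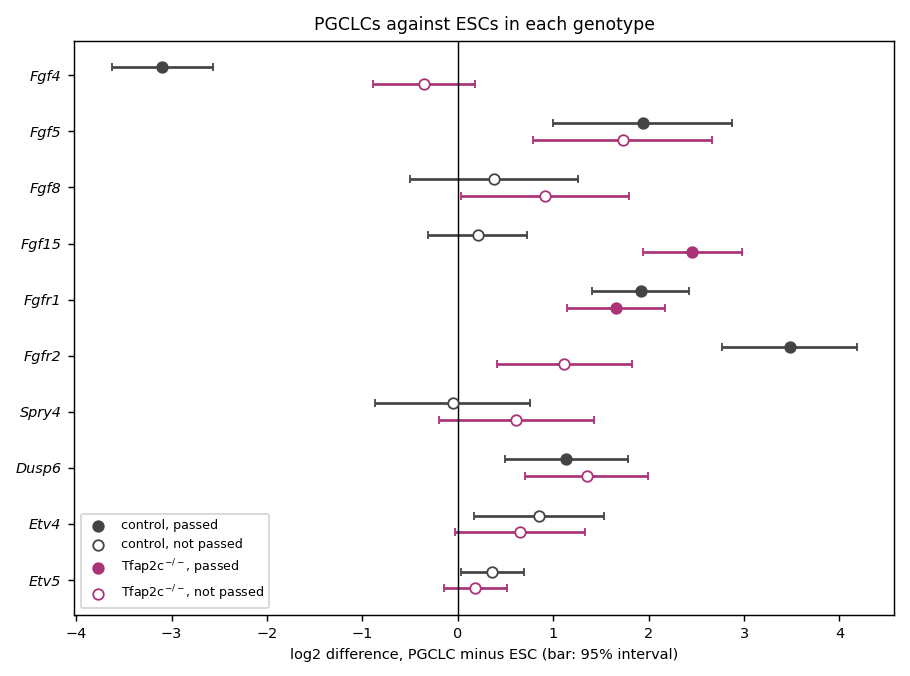
Log2 difference of PGCLC minus ESC (horizontal axis) for the 10 genes in controls (dark grey) and in Tfap2c-/- cells (purple), with 95% intervals as bars and filled points for genes past an adjusted p of 0.05. For Fgf4 the control point at −3.10 and the knockout point at −0.36 lie apart, for Fgf15 the knockout point lies at 2.46 and the control point at 0.21, and for Fgfr1, Fgf5 and Dusp6 the 2 points lie close together.

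Fgf4 and Etv4 kept 1 direction over all their probe sets for the knockout in PGCLCs, at 0.38 to 2.94 over 4 and −0.65 to −0.56 over 2. Spry4 did not, at −0.58 to 0.40 over 4 probe sets, nor did Fgfr2, at −1.84 to 0.16 over 3. Dim probe sets were among these, 1449729_at of Fgf4 (0.88) and 1443211_at of Fgfr2 (0.16). The first was above the array median on 1 array and the second on none, so neither counts for or against a direction. Fgfr1 ran from −0.14 to 0.05 over 3 and Etv5 from −0.47 to −0.11 over 3. In Tfap2c-/- PGCLC sample 2 the dim probe sets 1426186_a_at of Fgf5, 1425911_a_at of Fgfr1 and 1422020_at of Spry4 all read 2.5746, so values this low hold no order between genes or groups. Levels were not compared between genes.

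**Figure D4:**
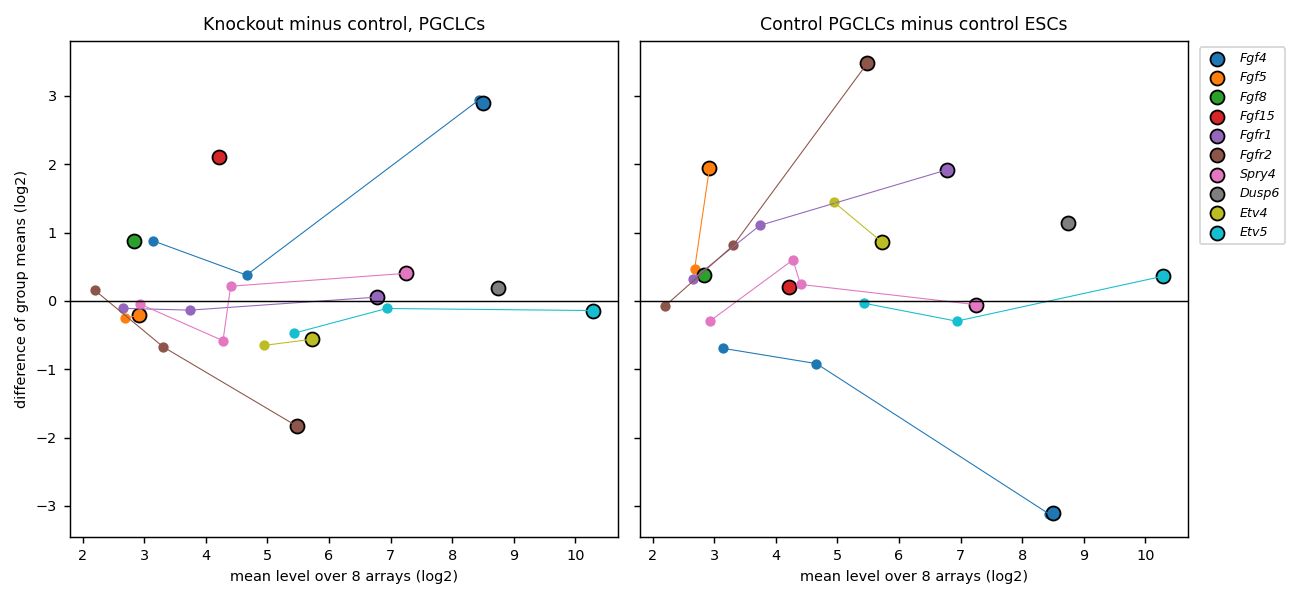
Difference of group means (log2, vertical axis) against the mean level over the 8 arrays (log2, horizontal axis) for all 24 probe sets of the 10 genes, with lines joining the probe sets of a gene and the outlined point for the one tested. The left panel shows knockout minus control in PGCLCs and the right panel control PGCLCs minus control ESCs. The brightest Fgf4 and Fgfr2 probe sets lie far from 0, and their dim ones lie closer to it.

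The rest of the pathway was read from 4 lists of related genes. These counts stand beside the 3.09% of all genes called in PGCLCs with the knockout, 1.29% higher and 1.8% lower. Of 18 other FGF ligands, 1 passed in PGCLCs with the knockout, Fgf1, a ligand that binds all FGF receptors, at 2.93 and 2.73 in controls and 3.87 and 4.06 in the knockout (1.13, adjusted p = 0.0235, limma). Both control PGCLC values of Fgf1 were dim, so 1.13 is not a measured fold. The call was lost without either control ESC sample, without either control PGCLC sample and without Tfap2c-/- PGCLC sample 2, each of which left 0 of 18. Among 20 measured receptors, co-receptors and binding proteins, 1 was higher, the glypican Gpc4, a heparan sulfate carrier, at 6.004 and 5.80 in controls and 7.33 and 8.19 in the knockout (1.86, adjusted p = 0.0177). Without control PGCLC sample 2, 0 of the 20 were called. None of the 17 measured genes of the RAS-ERK cascade passed in PGCLCs, and their differences ran from −0.57 to 1.02. Of 29 other ERK feedback and target genes, 4 were higher and 1 was lower. The higher genes were Spsb1, a SOCS box protein (1.96), the receptor tyrosine kinase gene Epha2 (1.53), the RAS inhibitor gene Spred1 (1.06) and the urokinase receptor gene Plaur (0.90), and the lower one was the immediate early gene Ier3 (−1.67). These changes did not run one way. Without control PGCLC sample 2 or without Tfap2c-/- PGCLC sample 2, 0 of the 29 were called. The medians of the 4 lists in PGCLCs were 0.04, 0.09, 0.09 and 0.18, beside −0.04 over all genes. In ESCs and for the difference between the knockout effects, 0 genes of the 4 lists were called.

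From control ESCs to control PGCLCs, where 8.37% of all genes were called, 7 of the 29 other ERK feedback and target genes were higher and 2 lower. The MAP kinase phosphatases Dusp4 (3.59) and Dusp5 (1.71) and the immediate early genes Phlda1 (2.84) and Ier5 (2.32) rose, and the cyclin gene Ccnd1 (−2.72) and Plaur (−0.78) fell. Leaving out single samples brought the 9 called genes down to 2 without control ESC sample 1, 3 without control ESC sample 2, 5 without control PGCLC sample 1 and 3 without control PGCLC sample 2. In the knockout, where 2.32% of all genes were called, 6 of the 29 were higher in PGCLCs than in ESCs, with Dusp9 (3.49), Dusp4 (2.90), Phlda1 (2.83) and Junb (1.72) the largest, and this count was 1 without Tfap2c-/- PGCLC sample 1 and 2 without either control ESC sample. In the cascade 2 genes were higher in controls, the MEK gene Map2k2 (0.82) and the phospholipase gene Plcg1 (0.75), and 2 were lower, the adaptor gene Gab1 (−0.93) and the RAS gene Nras (−0.54). These 4 calls fell to 0 without control ESC sample 1 or control PGCLC sample 2. In the knockout 1 cascade gene, the RAF kinase gene Braf, was called (1.27), and 0 were without either Tfap2c-/- ESC sample or either Tfap2c-/- PGCLC sample. Of the heparan sulfate carriers, the glypican gene Gpc1 rose (1.56) and the syndecan gene Sdc2 fell (−1.88) in controls, where 0 of the 18 other FGF ligands were called. In the knockout 1 carrier, Gpc1 (0.98, adjusted p = 0.0441), and 1 ligand, Fgf1 (1.11, adjusted p = 0.0324), were higher in PGCLCs. With Fgf1 dim in the knockout ESCs, 1.11 is not a measured fold. The count of called carriers fell to 0 in every fit that left out a sample except the one without Tfap2c-/- PGCLC sample 2, and that of ligands in every one except that without Tfap2c-/- ESC sample 1.

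**Figure D5:**
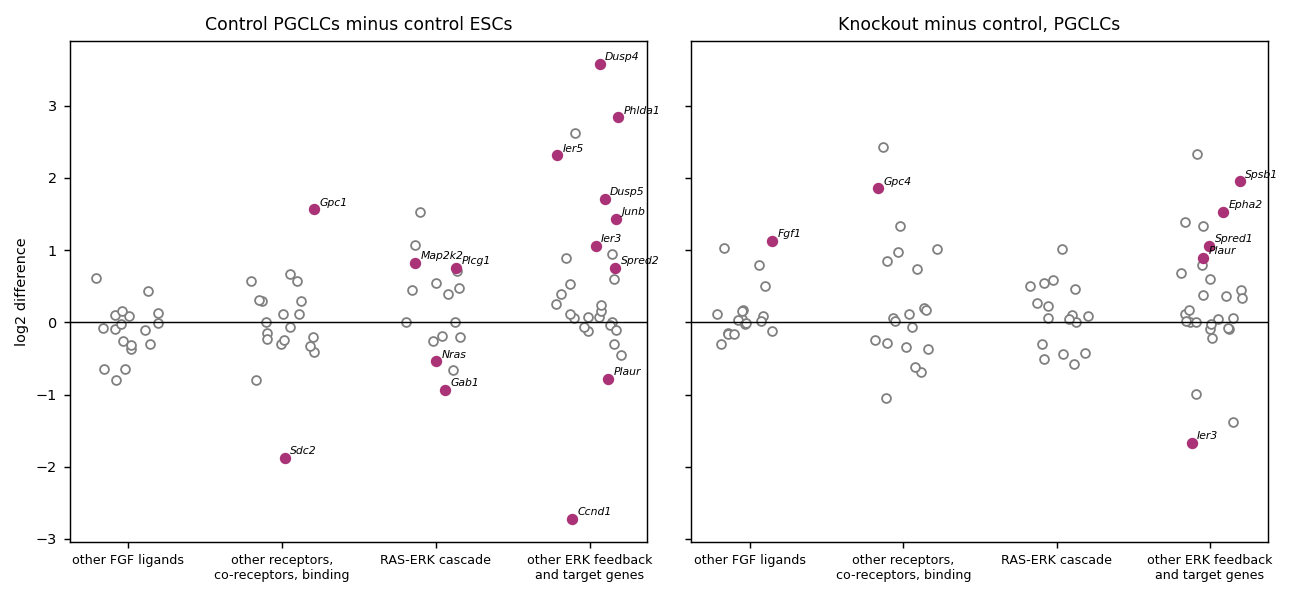
Log2 difference (vertical axis) of each measured gene of the 4 pathway lists, for control PGCLCs minus control ESCs (left) and for knockout minus control in PGCLCs (right), with filled and named points for genes past an adjusted p of 0.05. Dusp4 at 3.59 and Ccnd1 at −2.72 mark the ends on the left, and on the right the named points run from Ier3 at −1.67 to Spsb1 at 1.96.

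The genes closest to Fgf4 in pattern over the 8 samples, by the root mean square difference of log2 values after each gene was centred, were Prune2 (0.218), Hspb8 (0.233), Cobl (0.233), Grtp1 (0.297) and Sfrp1 (0.328). Prune2 read 6.36 and 6.41 in the control and 6.84 and 6.70 in the knockout ESCs, and 3.93 and 3.13 in the control and 6.41 and 6.51 in the knockout PGCLCs. They were picked for this likeness, so their differences are a description. In PGCLCs the knockout differences were 2.93 for Prune2, 2.52 for the small heat shock gene Hspb8, 2.44 for Cobl, 2.34 for Grtp1 and 2.75 for Sfrp1, a secreted antagonist of WNT.

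Fgf4 and Fgf15 are neighbours on chromosome 7 in RefSeq, in the order Ano1, Fgf3, Fgf4, Fgf15, LTO1 and Ccnd1 among protein-coding genes. Fgf3, on the other side of Fgf4, was 2.96 and 3.04 in the control and 2.97 and 2.79 in the knockout PGCLCs, and thus dim and overlapping. LTO1 was 6.18 and 6.23 in controls and 6.12 and 5.89 in the knockout, a difference of −0.20 (adjusted p = 0.689, limma). Ccnd1 was 6.999 and 5.36 in controls and 8.37 and 8.66 in the knockout, a difference of 2.33 that missed the threshold (adjusted p = 0.0639). Ano1 differed by 0.31 (adjusted p = 0.799). Of the 6 genes in this row, Fgf4 and Fgf15 were thus the ones called.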

How the data were processed

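RNA of 2 samples for each of 4 groups was hybridised to arrays. The deposited values are on the log2 scale, as normalized by the authors over all arrays. Their methods give RMA as the algorithm whereas the processing notes of the submitters list GCRMA with no version, and with either one differences shrink near background. Values were used as deposited, and 0 value columns of other samples were found. With 2 samples a group, precision is limited by their number.

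Each gene was read from its brightest probe set, by the mean of the 8 arrays. All 4 groups entered a single fit with limma 3.58.1 in R 4.3.3 (lmFit and eBayes with a trend on the level, 4 residual degrees of freedom), and two-sided p-values were adjusted by the Benjamini-Hochberg method over 18193 genes with a threshold of 0.05. There were 5 comparisons: the knockout effect in each cell type, the difference of these effects, and PGCLCs against ESCs in each genotype. The members and lists were chosen with earlier results of these data known. All members are named. From each list, in each comparison and direction, up to 4 called genes with the largest difference are named, and for genes like Fgf4 the 5 closest. The naming of Ano1, Fgf3, LTO1, Ccnd1 and the markers followed their place or list, and of Ccnd1 also its value. The lists held 93 genes, of which 84 had a probe set naming 1 gene. The code was tested on simulated data. Alternatives covered the choice of probe set, filter, quantile normalization, variance model, replicate block, samples in the fit, and leaving out each sample. Motifs were searched in RefSeq promoter tables with Python 3.11.15.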

Additional observations from a re-analysis of the deposited data

Results flagged for a closer look

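For Fgf4 the effect of the knockout differed between the cell types by 2.74 on the log2 scale, and the test of this difference passed (adjusted p = 0.0321, limma). Both Tfap2c-/- PGCLC samples exceeded both controls, while the ESC difference was 0.16. The call was lost in 6 of 8 fits that left out a sample.

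For Fgf15 both Tfap2c-/- samples were above both controls in PGCLCs and below both controls in ESCs, and the effects differed by 2.25. The test of this difference missed the threshold (adjusted p = 0.0626, limma). The ESC levels lie between 3.43 and 3.70, at the array median.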

How the results depend on the processing

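Over the 17 alternatives run for each, the calls of Fgf4 and Fgf15 for the knockout in PGCLCs, of Fgf4 and Fgfr1 between the control cell types and of Fgf15 between the knockout cell types held in all. Fgfr2 in PGCLCs held in 12 of 17, Fgfr1 between the knockout cell types in 12 of 17, Fgf5 in controls in 12 of 16, Dusp6 in controls in 7 of 17 and the Fgf4 difference between effects in 9 of 16. Leaving out single samples, 2 to 3 members were called for the knockout in PGCLCs, 0 in ESCs, 0 to 2 for the difference between effects, 3 to 5 between control cell types and 1 to 3 between knockout cell types. For the difference between effects, averaging the probe sets of a gene gave 0 members called (Fgf4 1.70, adjusted p = 0.117) and the fold rule 3, beside 1. Between knockout cell types 3 alternatives each gave 1, beside 2. They were the mean of probe sets, the removal of probe sets ending in _x_at, _s_at or _a_at, and a fit on only the samples compared. Where not said otherwise the cause was not tested.

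Over all genes, leaving out samples moved the 562 calls in PGCLCs to 87 to 609, the 27 for the difference of effects to 1 to 56, the 1522 between control cell types to 325 to 1721 and the 422 between knockout cell types to 80 to 278, and fits on only the samples compared gave 187 and 56 for the first and last. In ESCs 0 to 1 genes were called. Signs turned for members not called, except Fgfr2. With the mean of probe sets Fgfr1 in PGCLCs was −0.0632, Spry4 in PGCLCs −0.0029 and between control cell types 0.12, and Etv5 in ESCs −0.30 and for the difference of effects 0.0615. Without probe sets ending in _x_at, _s_at or _a_at Fgfr1 in PGCLCs was −0.14. Fgfr2, then read by a dim probe set, was 0.16 in PGCLCs, −0.0178 in ESCs, 0.18 for the difference of effects and −0.0805 between control cell types. With quantile normalization Fgf5 in ESCs was −0.0042.

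Left-out samples turned the sign of 15 differences that were not called. In ESCs their ranges were −0.21 to 0.22 for Fgf5, −0.82 to 0.28 for Spry4, −0.51 to 0.46 for Dusp6, −0.77 to 0.0515 for Etv4 and −0.14 to 0.22 for Etv5. In PGCLCs they were −0.85 to 0.43 for Fgf5 and −0.0857 to 0.20 for Fgfr1. For the difference of effects they were −0.85 to 0.43 for Fgf5, −0.13 to 1.21 for Fgf8, −0.54 to 0.0253 for Fgfr1, −0.27 to 0.70 for Dusp6, −0.61 to 0.21 for Etv4 and −0.36 to 0.0014 for Etv5. Between control cell types they were −0.10 to 0.51 for Fgf15 and −0.36 to 0.25 for Spry4.

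The replicate numbers were not taken to pair the samples, since the deviations of same-numbered samples correlated above 0.1 in 3 of the 6 pairs of groups (0.174, 0.26 and, for the PGCLC genotypes, 0.392), and at −0.333, −0.005 and 0.0658 in the 3 with control ESCs. With replicate number as a block 3, 0, 1, 4 and 2 members were called in the 5 comparisons, beside 3, 0, 1, 5 and 2, and Dusp6 in controls was lost. Crossing the control ESC numbers, chosen after seeing the data because the ESC pair correlated at −0.333, gave 3, 0, 2, 6 and 3, with Fgf15 added for the difference of effects, and 912 and 927 genes called in PGCLCs and between knockout cell types. Limits are the 2 samples a group and dim levels of Fgf5 and Fgf8, which a filter on dim genes removes. The single Fgf8 probe set ends in _a_at, so Fgf8 has no value once probe sets with such suffixes are removed. A call missed here does not show that a gene did not differ.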
